A study of Mus musculus with 20 samples.

Results

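The time by corticosterone (Cort) interaction asks, for each gene, whether the response of the hypothalamic arcuate nucleus (ARC) to Cort after 4 weeks differed from the response after 2 days. Both raw count tables entered 1 fit, and the value tested was the log2 fold change of Cort against vehicle at 4 weeks minus that at 2 days. A positive interaction therefore means that the expression of a gene under Cort, relative to vehicle, stood higher at 4 weeks than at 2 days. The fit used 14 of the 20 samples of the series, 3 vehicle and 4 Cort samples at each time. The other 6 had been set aside by the study because they stood apart in principal components of their expression profiles, and they are called the set-aside samples here.

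The mice were male C57BL6/J animals, 10 weeks old, that drank 1% ethanol as vehicle or Cort at 75 µg/ml in 1% ethanol. Treatment lasted 2 days or 4 weeks. The mice of the 4 week experiment had in addition been fasted for 16 h and refed for 24 h, while still on treatment, before the tissue was taken. The ARC was cut out by laser capture microdissection and its RNA was amplified before sequencing. The 2 experiments differed in sequencer, laser system, section thickness and slide type. The age of 10 weeks is not stated for the day the tissue was taken. The length of treatment therefore cannot be told apart from the fast and refeeding, from the sequencer, from age or from any other difference between the experiments. Each response was measured against the vehicle group of its own experiment.

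Cort is the main glucocorticoid of the mouse and acts through the glucocorticoid receptor, which enters the nucleus on binding the hormone and raises or lowers the transcription of target genes. The ARC lies beside the third ventricle and holds AgRP neurons, which release AgRP, neuropeptide Y and GABA and promote feeding, and POMC neurons, which restrain it. Prolonged exposure to glucocorticoids is known for feedback that limits some early responses, and for increased feeding and weight gain.

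The total count ranged from 2487063 to 5748223 in the samples fitted from the 2 day experiment and from 1837715 to 5196364 in those from the 4 week experiment, in which fewer genes were detected (11579 to 13013, against 13720 to 14333). The spread between samples was also wider at 4 weeks. The typical coefficient of variation between samples of a group, estimated by edgeR, was 40.3% at 2 days and 79.7% at 4 weeks when each experiment was fitted alone, and 68% in the joint fit. The joint fit applied 1 spread to both times, so calls at a single time are given here from that experiment fitted alone unless stated. Alone, 5.97% of genes had a P below 0.05 at 2 days and 4.91% at 4 weeks, and 0.065% and 0.0446% had a Padj below 0.1 (edgeR, Benjamini-Hochberg). The ARC markers Agrp, Npy, Pomc, Cartpt, Ghrh, Th and Tac2 were detected in all 14 samples, whereas Nr5a1, which marks the neighbouring ventromedial nucleus, reached at most 2.34 CPM (counts per 1000000, after scaling). The samples are whole tissue, in which fewer cells of a type and less RNA per cell cannot be told apart.

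Few genes passed the adjusted threshold for the interaction. Of 12777 genes tested with edgeR's quasi-likelihood test, 2 had an adjusted P (Padj, Benjamini-Hochberg) below 0.1, which is 0.0157% of the genes tested. They were Npy, whose interaction was negative, and Ina, whose interaction was positive. At an unadjusted P below 0.01 there were 173 genes (1.35%), and below 0.05 there were 829 (6.49%), of which 448 were positive and 381 negative. No gene passed Padj below 0.1 when all 20 samples were fitted, or when any 1 of 9 of the 14 samples was left out. For every other gene tested, the Padj of the interaction by edgeR's quasi-likelihood test was 0.70 or more. The other genes named here are therefore described at unadjusted thresholds, with the size of the interaction and its SE, and rose, fell and passed refer to an unadjusted P below 0.05.

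The 173 genes were sorted by their responses at each time in the joint fit, with P below 0.05 as the threshold at a single time. The response of 10 genes had reversed, with a change at both times in opposite directions. The response of 8 genes had faded, with a change at 2 days that was not seen at 4 weeks, and that of 155 genes had grown, with a change at 4 weeks that was not seen at 2 days. The sorting depended on the spread, since the joint fit called 0.892% of all genes at 2 days and 13% at 4 weeks. With the P of each experiment alone the same 173 genes gave 14 reversed, 22 faded and 94 grown, while 43 passed at neither time. Of the 155 genes that grew, 79 were higher and 76 lower with Cort at 4 weeks, where the joint fit called 6.94% of all genes higher and 6.02% lower.

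Low counts weighed on this set. Among the 173 genes, 55 (31.8%) had no more than 3 counts in every sample of at least 1 group, against 5.24% of all genes tested, and 53 of the 55 had such a group at 4 weeks while 8 (4.62% of the 173) had one at 2 days. No fold change is given for these genes. Leaving them out left 7 reversed, 6 faded and 105 grown.

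**Figure D1:**
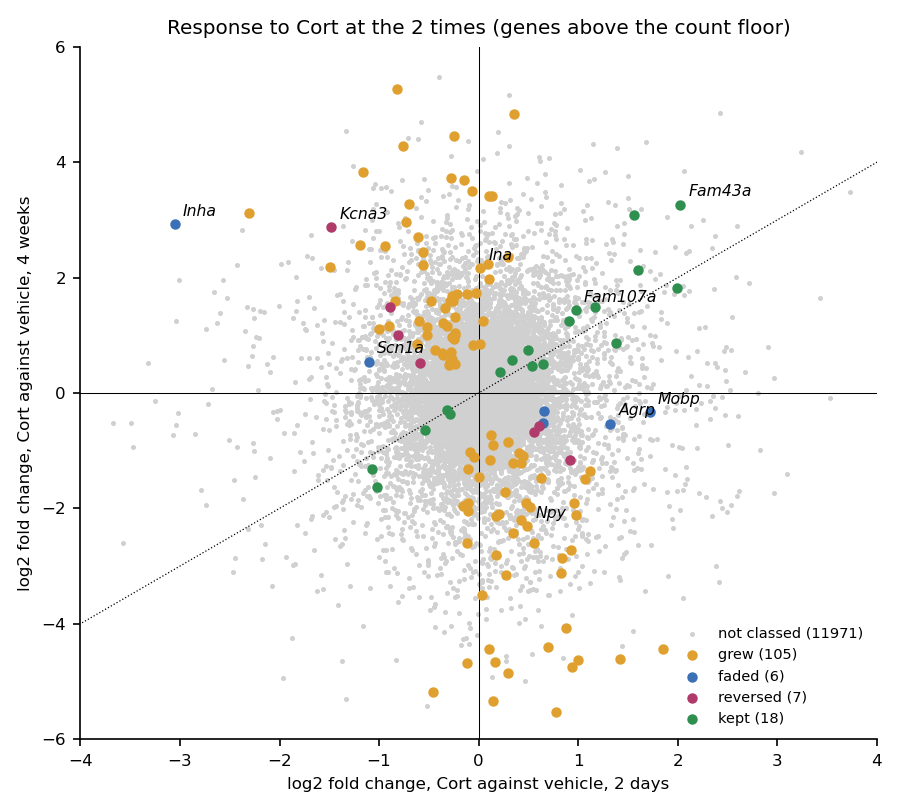
Response to Cort at 2 days (horizontal axis, log2 fold change against vehicle) and at 4 weeks (vertical axis) for the genes tested that had more than 3 counts in a sample of every group. Coloured points are the 105 genes that grew, 6 that faded, 7 that reversed and 18 that were kept, the dotted line marks equal responses, and most of the genes that grew lie close to 0 on the 2 day axis.

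Npy encodes neuropeptide Y, a peptide of AgRP neurons that promotes feeding. It had the smallest interaction P of all genes tested. At 2 days it measured 294, 344 and 453 CPM in the vehicle samples and 467, 473, 525 and 567 CPM in the Cort samples. At 4 weeks it measured 329, 501 and 566 CPM with vehicle and 50.8, 57.4, 77.5 and 186 CPM with Cort. The Cort samples thus lay above all vehicle samples at 2 days and below all of them at 4 weeks. The log2 fold change was 0.49 at 2 days and -2.31 at 4 weeks, and an exact permutation test gave P = 0.0286 and P = 0.0571. The interaction was -2.80 ± 0.47 (log2, SE), with a Padj of 0.0677 by edgeR's quasi-likelihood test. In the joint fit the 2 day change did not pass, so that the sorting above placed Npy among the genes that grew, whereas the P of each experiment alone placed it among those that reversed. With all 20 samples the interaction was -1.70 ± 0.61. The set-aside vehicle samples at 4 weeks measured 50.9 and 214 CPM and the set-aside Cort sample 283 CPM, so that the groups overlapped once these were included.

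Ina encodes alpha-internexin, an intermediate filament protein of neurons. At 2 days it measured 151, 199 and 230 CPM with vehicle and 168, 185, 188 and 235 CPM with Cort, so that the groups overlapped throughout. At 4 weeks it measured 56.0, 72.1 and 72.2 CPM with vehicle and 191, 240, 361 and 406 CPM with Cort, and every Cort sample lay above every vehicle sample. The log2 fold change was 0.02 at 2 days and 2.17 at 4 weeks, and an exact permutation test gave P = 0.943 and P = 0.0286, the smallest P that 3 against 4 samples allow. The interaction was 2.15 ± 0.37, with a Padj of 0.0677 by edgeR's quasi-likelihood test. It was 2.08 ± 0.41 with all 20 samples. The vehicle level at 4 weeks stood below that at 2 days, and the Cort level at 4 weeks ranged from within to above the 2 day levels.

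Npy lies on chromosome 6 (GRCm38, 49822710 to 49829507, plus strand), where no exon of another gene overlaps its own. Ina lies on chromosome 19 (47014698 to 47025327, plus strand), and its exons overlap those of Nt5c2 on the opposite strand. The counting is not stated to use strand, so reads from such a pair cannot be told apart. The 250 bases before the start of each transcript, from RefSeq (GRCm38.p6), are printed here for the genes that carry the main contrast, Npy and Ina with a response that changed between the times. They were searched on both strands for the half-site of the glucocorticoid response element, AGAACA, which reads TGTTCT on the other strand. Neither promoter holds it, whereas 16.1% of all promoter entries and 12.8% of those of the genes tested do.

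Npy promoter, chr6:49822460-49822709, plus strand: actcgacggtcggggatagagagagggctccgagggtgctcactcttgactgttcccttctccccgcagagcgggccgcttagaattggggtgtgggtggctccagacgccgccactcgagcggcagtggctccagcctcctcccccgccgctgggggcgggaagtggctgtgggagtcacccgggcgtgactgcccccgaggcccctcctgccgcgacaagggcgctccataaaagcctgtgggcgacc
Ina promoter, chr19:47014431-47014680, plus strand: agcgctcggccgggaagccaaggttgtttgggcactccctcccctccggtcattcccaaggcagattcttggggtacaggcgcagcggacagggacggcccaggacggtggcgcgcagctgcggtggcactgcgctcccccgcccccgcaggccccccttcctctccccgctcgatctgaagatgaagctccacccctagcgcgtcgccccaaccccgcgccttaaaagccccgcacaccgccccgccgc

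Among the genes whose response reversed in the joint fit were Kcna3, Me2, Pogk, Ugp2, Trrap and Rbbp7. Kcna3, a voltage-gated potassium channel subunit, measured 14.8, 16.1 and 29.3 CPM with vehicle and 6.50, 6.56, 7.21 and 8.20 CPM with Cort at 2 days. At 4 weeks it measured 2.93, 6.13 and 7.08 CPM with vehicle and 15.5, 15.7, 49.6 and 76.6 CPM with Cort. The Cort samples lay below all vehicle samples at 2 days and above all of them at 4 weeks. Such separation was found in 6.56% of all genes at 2 days and in 6.11% at 4 weeks. The interaction was 4.35 ± 1.03, from a log2 fold change of -1.48 at 2 days and 2.87 at 4 weeks, and it was 4.41 ± 1.13 with all 20 samples. In the fit of all 20 samples the 2 day change, -1.19, did not pass. The set-aside vehicle samples at 2 days measured 3.91 and 7.69 CPM, within or below the range of the Cort samples fitted.

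Me2 encodes the mitochondrial malic enzyme. It measured 54.5, 81.4 and 84.3 CPM with vehicle and 23.9, 38.0, 46.3 and 48.6 CPM with Cort at 2 days, and 41.5, 50.2 and 51.0 CPM with vehicle and 67.9, 82.4, 128 and 256 CPM with Cort at 4 weeks. Again the groups of samples fitted did not overlap at either time, and their order turned. The interaction was 2.39 ± 0.60, and with all 20 samples 1.72 ± 0.67. In the fit of all 20 samples the 2 day change, -0.22, did not pass. The set-aside vehicle samples at 2 days measured 37.3 and 18.1 CPM, within or below the range of the Cort samples fitted, and the set-aside Cort sample 76.85 CPM.

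Pogk, which encodes a protein with a KRAB domain, moved the other way. It measured 33.8, 36.7 and 36.9 CPM with vehicle and 45.2, 61.4, 63.8 and 98.6 CPM with Cort at 2 days, and 78.6, 93.3 and 128 CPM with vehicle and 26.6, 28.9, 50.6 and 72.1 CPM with Cort at 4 weeks. Its interaction was -2.08 ± 0.59, but -0.37 ± 0.75 with all 20 samples. The set-aside vehicle samples at 2 days measured 87.1 and 135 CPM, among the highest of that experiment. Ugp2, which makes the sugar donor for glycogen synthesis, went from a log2 fold change of -0.81 to 1.01 (interaction 1.83 ± 0.54). Trrap, a scaffold of histone acetyltransferase complexes, went from -0.59 to 0.52, and Rbbp7, a histone-binding subunit of deacetylase complexes, from 0.60 to -0.57 (interaction -1.17), but the interaction of Rbbp7 was -0.57 with all 20 samples and did not pass. Of these 3 the Cort samples stood apart from the vehicle samples at 2 days and overlapped with them at 4 weeks. By the P of each experiment alone, none of these 3 reversed, whereas Kcna3, Me2 and Pogk did.

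By the P of each experiment alone, Lsamp and Syngr1 also reversed. Lsamp, a cell adhesion protein of the neuronal surface, measured 754 to 896 CPM with vehicle and 621 to 751 CPM with Cort at 2 days, and 401 to 568 CPM with vehicle and 683 to 934 CPM with Cort at 4 weeks. Its interaction was small in size but among the firmest, at 1.00 ± 0.23. With all 20 samples it was 0.70 ± 0.24, and the 2 day change, -0.22, did not pass. The set-aside vehicle samples measured 708 and 792 CPM at 2 days. At 4 weeks they measured 592 and 730 CPM and the set-aside Cort sample 662 CPM. The groups of Lsamp overlapped at both times once these were included. Syngr1, a synaptic vesicle protein named here after its values were seen, had an interaction of 1.52, from -0.51 at 2 days and 1.00 at 4 weeks. Across all genes tested, 27 (0.211%) had groups apart at both times in opposite directions, and 28 (0.219%) had groups apart at both times in the same direction. With all 20 samples the first count was 0 and the second was 2.

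Between these experiments, Agrp and Mobp carried the clearest faded responses. Agrp encodes agouti-related peptide, which promotes feeding by blocking melanocortin receptors. At 2 days it measured 117, 162 and 209 CPM with vehicle and 272, 418, 432 and 500 CPM with Cort, and every Cort sample lay above the vehicle samples. At 4 weeks it measured 160, 210 and 303 CPM with vehicle and 105, 123, 154 and 237 CPM with Cort, and the groups overlapped. The log2 fold change was 1.32 at 2 days (edgeR on that experiment, Padj = 0.0103) and -0.53 at 4 weeks (Padj = 0.99), and the interaction was -1.85 ± 0.42. With all 20 samples it was -1.03 ± 0.63 and did not pass. The set-aside vehicle samples at 2 days measured 420 and 540 CPM, within the range of the Cort samples. The paper reports that Cort raised Agrp and left Npy unchanged in other mice, injected with virus and treated for the longer time. For those mice it describes no fast, and it states that the fast and refeeding affected part of this pathway in the mice sequenced. The faded response of Agrp is thus a difference between these experiments, and the part of the fast in it was not tested. Agrp exons (chromosome 8, 105566698 to 105637393, minus strand) overlap those of Ctcf on the opposite strand and of Gm5914 on the same strand.

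Npy and Agrp come from the same neurons, and both passed at 2 days, in the upward direction. They parted at 4 weeks, when Npy was lower with Cort while Agrp did not pass the test. Among the 8 genes listed for AgRP neurons, 2 had an interaction P below 0.05, both negative (Npy and Agrp), beside 2.98% of all genes tested in that direction. The median log2 fold change of the 8 was 0.78 at 2 days and 0.24 at 4 weeks. At 2 days 5 of them passed upward in the experiment alone, where 3.14% of all genes did. For the 11 genes of POMC neurons and prohormone processing the medians were -0.07 and -0.10, and 1, Tbx3, had an interaction P below 0.05, which was lost with all 20 samples. Pomc itself, the precursor of melanocyte-stimulating hormone, had an interaction of -0.58 ± 0.34 that did not pass.

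Mobp, a structural protein of myelin, measured 41.7, 43.7 and 75.3 CPM with vehicle and 164, 164, 167 and 207 CPM with Cort at 2 days. At 4 weeks it measured 162, 176 and 245 CPM with vehicle and 41.8, 127, 152 and 298 CPM with Cort. The groups were far apart at 2 days and overlapped at 4 weeks, when the vehicle level itself stood higher than in the 2 day experiment. The log2 fold change was 1.72 at 2 days (edgeR on that experiment, Padj = 0.00324) and -0.33 at 4 weeks (Padj = 0.99), and the interaction was -2.05 ± 0.58. It was -0.52 ± 0.72 with all 20 samples and did not pass. The set-aside vehicle samples at 2 days measured 96.4 and 315 CPM.

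Scn1a, which encodes a voltage-gated sodium channel, had fallen at 2 days. It measured 73.4, 80.1 and 89.6 CPM with vehicle and 26.2, 39.6, 40.9 and 43.2 CPM with Cort at 2 days, and 41.4, 90.5 and 97.8 CPM with vehicle and 89.5, 109, 109 and 139 CPM with Cort at 4 weeks. The interaction was 1.65 ± 0.50, and 0.77 ± 0.52 with all 20 samples, where it did not pass. Tns3, a focal adhesion protein, and Snhg11, a long non-coding RNA, had risen by 0.65 and 0.66 at 2 days and had interactions of -1.16 and -0.97, neither of which passed with all 20 samples. Inha, the inhibin alpha subunit, had an interaction of 5.98 ± 2.03 on few counts, with 0 to 1.30 CPM in the 2 day Cort samples.

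**Figure D2:**
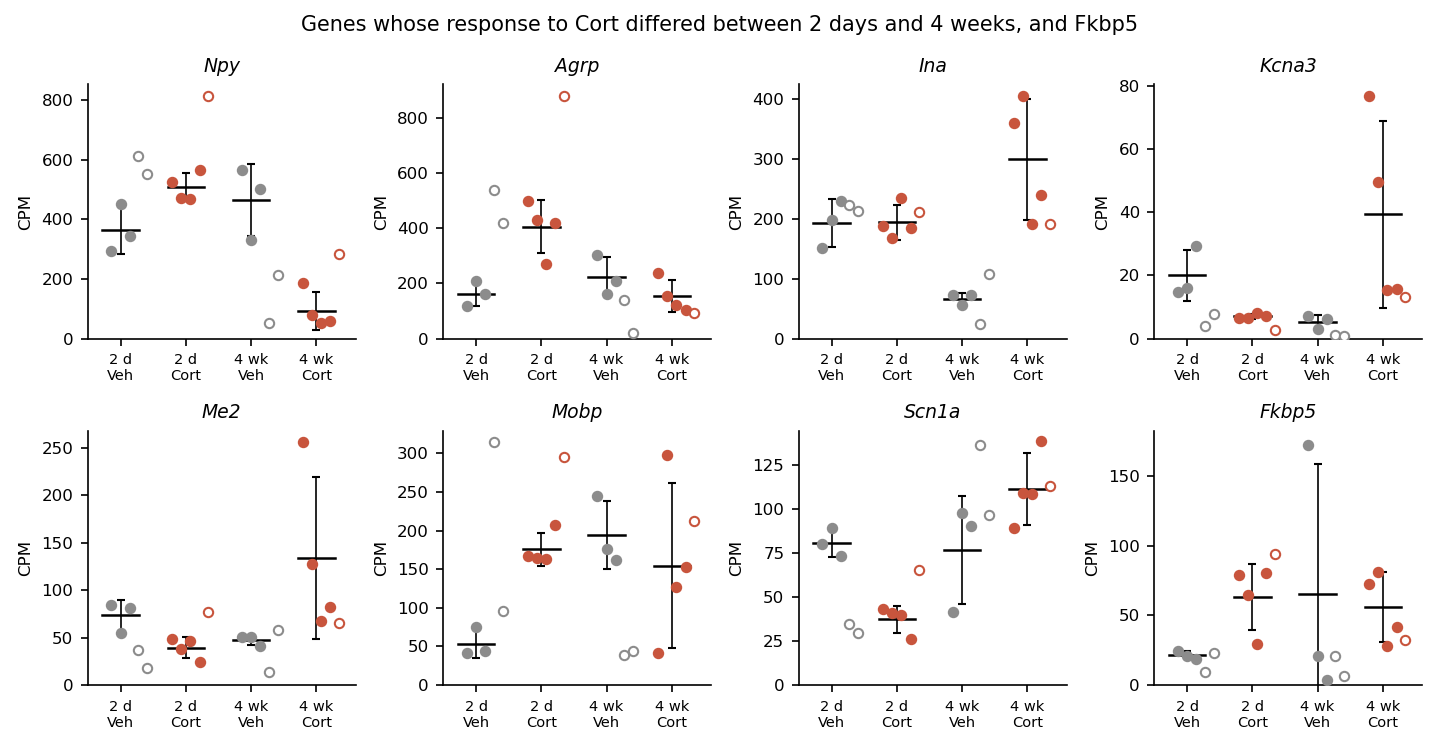
CPM of 8 genes in each group, where Veh is vehicle, filled points are the 14 samples fitted, open points the 6 set-aside samples, and bars give the mean and SD of the samples fitted (cut off at 0). Among the samples fitted, the order of vehicle and Cort samples turns between the times for Npy, Kcna3 and Me2. The gap closes for Agrp, Mobp and Scn1a and opens for Ina, while 1 vehicle sample of Fkbp5 at 4 weeks lies far above the others.

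Of the early responses that the study named, Fkbp5 and Dio2 had a smaller fold change at 4 weeks, but the difference did not pass. Fkbp5 encodes a cochaperone that is induced by glucocorticoids and restrains their receptor. It measured 18.9, 20.6 and 24.8 CPM with vehicle and 29.4, 64.7, 79.1 and 80.4 CPM with Cort at 2 days, and 3.30, 20.5 and 172 CPM with vehicle and 28.4, 42.0, 72.8 and 81.3 CPM with Cort at 4 weeks. All but 1 vehicle sample therefore lay below the Cort samples at both times. The interaction was -1.79 ± 1.05, and it turned to 0.67 without the vehicle sample at 172 CPM (C02). Dio2, which activates thyroid hormone, had a log2 fold change of 1.36 at 2 days and 0.06 at 4 weeks, with an interaction of -1.30 ± 0.70, which ranged from -1.78 to -0.52 with 1 sample left out and was smallest without 4 week C03. In whole hypothalami of other mice, given Cort for some weeks in the same way, the paper reports that Dio2 was still raised. It proposes that the rise lasts as long as the treatment. Nmb, the peptide neuromedin B, had an interaction of -1.79 ± 1.14, and Ociad2 one of -0.78 ± 0.40, and neither passed. Each of these 4 genes did pass in at least 1 refit that left out a sample.

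The genes that grew were the largest class, and the ones above the count floor with the smallest P after Npy and Ina included Tubgcp3, Itgb5 and Vsir. Tubgcp3, a subunit of the complex that nucleates microtubules, measured 40.0 to 47.9 CPM with vehicle and 34.0 to 62.2 CPM with Cort at 2 days, and 85.7 to 174 CPM with vehicle and 24.4 to 38.9 CPM with Cort at 4 weeks. Its interaction was -2.29 ± 0.55, and the groups were apart only at 4 weeks. Itgb5, an integrin subunit, measured 9.76 to 11.8 CPM with vehicle and 15.8 to 21.8 CPM with Cort at 2 days, and 29.3 to 72.6 CPM with vehicle and 3.85 to 10.7 CPM with Cort at 4 weeks. Its groups were apart at both times, in opposite directions, with an interaction of -3.70 ± 0.90 that was -2.001 ± 1.09 and did not pass with all 20 samples. Vsir, an immune checkpoint receptor of myeloid and T cells, had an interaction of 3.98 ± 1.02.

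Esr1 and Tac2 were also among the genes whose response grew. Esr1, the oestrogen receptor alpha, measured 68.1 to 105 CPM with vehicle and 55.2 to 90.3 CPM with Cort at 2 days, and 30.9 to 62.3 CPM with vehicle and 72.4 to 167 CPM with Cort at 4 weeks, with an interaction of 1.55 ± 0.52. Tac2, which encodes neurokinin B, went from 76.7 to 158 CPM with vehicle and 113 to 152 CPM with Cort at 2 days to 8.01 to 43.5 CPM with vehicle and 53.0 to 198 CPM with Cort at 4 weeks (interaction 1.87 ± 0.66). The interaction of Esr1 over all 20 samples was 0.73 and did not pass. Among the samples fitted, the groups of both genes overlapped at 2 days and not at 4 weeks. With the set-aside samples they overlapped at 4 weeks also. A set-aside vehicle sample measured 57.4 CPM for Tac2 and 186 CPM for Esr1, and the set-aside Cort sample 30.1 CPM for Tac2. Esr1 and Tac2 belong to the 7 genes tested of the KNDy neurons, which release kisspeptin, neurokinin B and dynorphin and control reproduction. Of these 7, 2 had a positive interaction with P below 0.05 and none a negative one, beside 3.51% positive over all genes tested, and the median log2 fold change went from -0.12 at 2 days to 1.096 at 4 weeks. Pdyn, which encodes dynorphin, was the member with a negative interaction, at -0.14, which did not pass.

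The receptors for Cort itself also entered the comparison. Nr3c1, the glucocorticoid receptor, measured 149 to 157 CPM with vehicle and 152 to 215 CPM with Cort at 2 days, and 266 to 310 CPM with vehicle and 166 to 234 CPM with Cort at 4 weeks. The Cort samples lay below all vehicle samples at 4 weeks, and the interaction was -0.81 ± 0.30, with -0.80 ± 0.34 over all 20 samples. The corepressor Ncor1 had an interaction of -1.05 ± 0.35. In the list of 18 receptors and coregulators 2 interactions were positive and 2 negative at P below 0.05, beside 3.51% and 2.98% of all genes tested. Among 18 receptors for feeding hormones and peptides the split was likewise 2 and 2. Lepr, the leptin receptor, had an interaction of -2.72 ± 0.96, whereas Glp1r, the receptor for glucagon-like peptide 1, had one of 2.34 ± 0.85 and Cnr1, the cannabinoid receptor, one of 1.36 ± 0.54. Lepr and Cnr1 did not pass without 4 week C04, nor Glp1r without 2 day C05, when it was 1.41.

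Of the late responses that the study named, Scly, which recycles selenium from selenocysteine, measured 0.39 to 5.72 CPM with vehicle and 1.90 to 15.1 CPM with Cort at 2 days, and 18.9 to 34.0 CPM with vehicle and 0 to 2.24 CPM with Cort at 4 weeks (interaction -5.68 ± 1.60). Mertk, a receptor for the uptake of dying cells, Fam13a and Gpr12, an orphan receptor, had interactions of 2.34, 2.33 and -2.81, all below P 0.05. Hr, a corepressor of nuclear receptors, had one of 2.82, also below P 0.05. The study named Hr at 2 days and not as a late response. Its in situ hybridization at that time gave a rise that was a trend only. By the counts, none of these 4 genes had passed at 2 days. Mertk (0.27), Hr (1.22) and Gpr12 (-1.20) did not pass with all 20 samples, and Hr and Gpr12 lost the call when any 1 of several samples was left out. Bmp7, a growth factor, is an example of the genes at the count floor. It measured 5.96 to 12.4 CPM with vehicle and 1.15 to 10.4 CPM with Cort at 2 days, 0 CPM in the 3 vehicle samples at 4 weeks, and 0.50 to 21.2 CPM in the 4 Cort samples at 4 weeks.

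A smaller set of genes kept their response. In the joint fit 20 genes passed at both times in the same direction with an interaction P of at least 0.05, of which 13 were higher and 7 lower with Cort, where at 2 days that fit called 0.509% of all genes higher and 0.384% lower. With each experiment alone, 31 genes were higher at both times, 11 lower at both, and 14 changed in opposite directions, at P below 0.05 each time. The experiments share no samples. Of 169 genes below P 0.01 at 2 days that were tested in both, 55.6% had the same sign at 4 weeks, and of 112 genes below P 0.01 at 4 weeks 63.4% had the same sign at 2 days, against 51.8% of all genes. With all 20 samples the shares were 68.2% and 49.5%, against 50.7% of all genes.

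Fam107a, an actin-associated protein that glucocorticoids and stress induce, was the firmest of the kept genes. It measured 445, 513 and 613 CPM with vehicle and 876, 912, 1081 and 1223 CPM with Cort at 2 days, and 219, 235 and 381 CPM with vehicle and 623, 763, 794 and 827 CPM with Cort at 4 weeks. The log2 fold change was 0.97 and then 1.44, and the difference between them was within the error, with an interaction of 0.46 ± 0.28. With all 20 samples it was 0.69 ± 0.30 and passed P 0.05, with the larger rise at 4 weeks, and it also passed without 4 week C02, at 0.77. Serpina3n, a secreted protease inhibitor named here after its values were seen, measured 171, 203 and 206 CPM with vehicle and 269, 495, 532 and 702 CPM with Cort at 2 days, and 248, 265 and 384 CPM with vehicle and 428, 547, 549 and 669 CPM with Cort at 4 weeks. Its groups stayed apart at both times also with all 20 samples, as did those of Reps1 alone among all other genes tested. The interaction of Serpina3n was -0.50 ± 0.35 and did not pass. Serpina3n belongs to a family of close paralogs, between which the counting could divide reads.

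The promoters of these kept genes are printed as well, with the half-sites in capitals. Fam107a has 3 entries and Npy, Ina and Serpina3n 1 each. An entry that holds a half-site was taken first, so the printed promoters give no even comparison. In that of Fam107a (chromosome 14, minus strand) AGAACA begins 158 bases and TGTTCT 110 bases before the start, and in that of Serpina3n (chromosome 12) AGAACA begins 183 bases before it. In the counts that follow, a gene counted if any of its entries held a half-site. A half-site was found for 4 of 17 kept genes with a promoter entry (23.5%), 2 of 8 reversed (25.0%), 1 of 7 faded (14.3%) and 21 of 133 grown (15.8%). The whole palindrome, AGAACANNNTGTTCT, is present in 3 of 32851 entries. No entry for Agrp was at hand.

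Fam107a promoter, chr14:8309780-8310029, minus strand: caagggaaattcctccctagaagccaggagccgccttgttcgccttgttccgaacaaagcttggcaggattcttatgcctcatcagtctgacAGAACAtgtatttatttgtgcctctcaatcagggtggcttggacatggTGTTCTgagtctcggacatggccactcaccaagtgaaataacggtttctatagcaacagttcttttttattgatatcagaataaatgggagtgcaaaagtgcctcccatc
Serpina3n promoter, chr12:104406458-104406707, plus strand: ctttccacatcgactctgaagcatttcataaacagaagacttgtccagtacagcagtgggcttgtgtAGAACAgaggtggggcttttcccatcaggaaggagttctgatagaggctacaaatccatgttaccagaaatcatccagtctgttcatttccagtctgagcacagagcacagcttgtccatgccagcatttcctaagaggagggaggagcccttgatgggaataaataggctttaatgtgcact

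Fam43a had the largest kept rise of the genes the study named. Its log2 fold change was 2.03 at 2 days and 3.27 at 4 weeks. At 2 days it measured 10.7, 12.8 and 17.9 CPM with vehicle and 15.7, 16.7, 82.4 and 109.5 CPM with Cort, so that the groups overlapped. At 4 weeks it measured 7.79 to 22.2 CPM with vehicle and 93.3 to 176 CPM with Cort. The interaction was 1.24 ± 0.81 and did not pass, although it was 1.79 and passed without 2 day C03. Glul, the glutamine synthetase of astrocytes, rose by 0.54 and then 0.47, and Selenop, which carries selenium, by 0.65 and 0.50. Mt2, a metallothionein that binds zinc and copper, rose by 0.91 and 1.25. Gabrq, the theta subunit of the GABA A receptor, was among the 7 kept genes that fell, by 0.54 and 0.65 on the log2 scale. It measured 306 to 406 CPM with vehicle and 233 to 276 CPM with Cort at 2 days, and 315 to 429 CPM with vehicle and 166 to 291 CPM with Cort at 4 weeks, so that the groups were apart at both times. In the fit of all 20 samples Selenop (0.29 and 0.25) and Gabrq (-0.26 and -0.51) passed at neither time, and Mt2 passed at 4 weeks and not at 2 days.

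**Figure D3:**
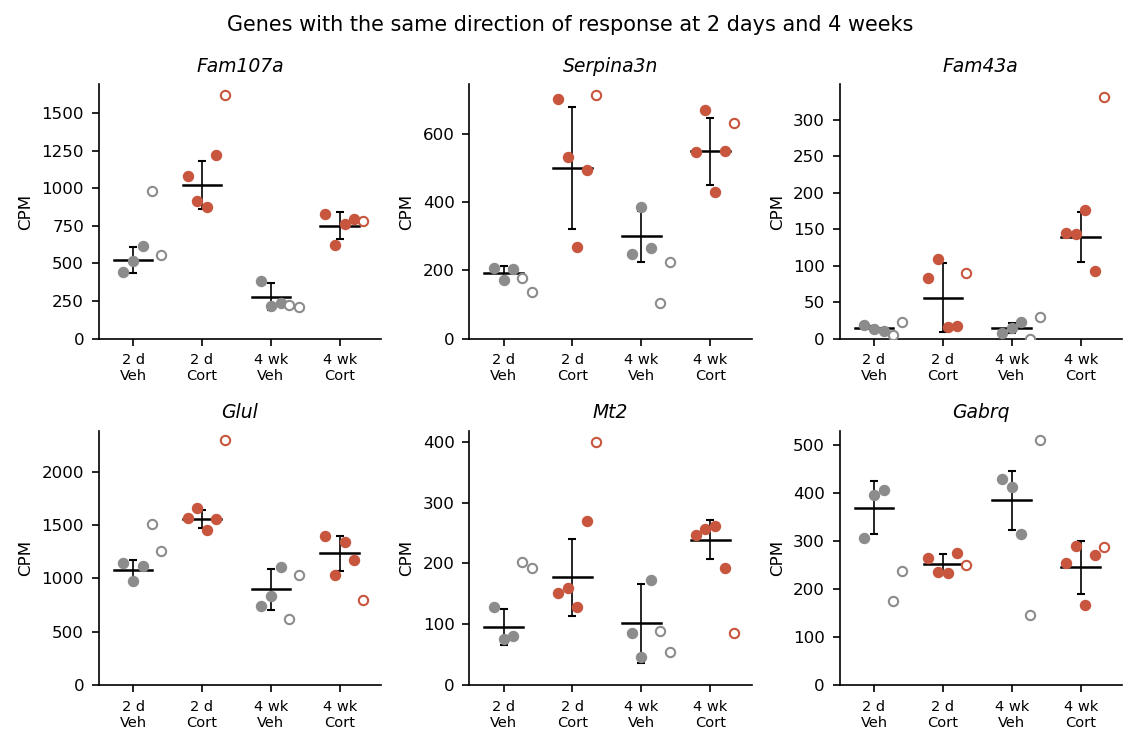
CPM of 6 genes that kept the direction of their response, where Veh is vehicle, filled points are the 14 samples fitted, open points the 6 set-aside samples, and bars give the mean and SD of the samples fitted. The means of Fam107a, Serpina3n, Fam43a, Glul and Mt2 stand higher with Cort at both times and that of Gabrq lower. Some of the vehicle and Cort samples fitted overlap for Fam43a, Glul and Mt2. With the open points included, samples of Fam107a and Gabrq overlap also.

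Glucocorticoid-induced genes that passed at a single time were all higher with Cort. Of 21 tested, 8 were higher and 0 lower with Cort at 2 days in the experiment alone (P below 0.05), where 3.14% of all genes were higher and 2.83% lower. At 4 weeks 5 of the 18 tested in that experiment were higher and 0 lower, where 2.95% of all genes were higher and 1.95% lower. The median log2 fold change was 0.61 at 2 days and 0.51 at 4 weeks. The sum of CPM over the 25 genes of the list with a row in the tables was 1904 to 2230 with vehicle and 2885 to 3625 with Cort at 2 days, and 1527 to 1824 with vehicle and 2400 to 3204 with Cort at 4 weeks. A set-aside vehicle sample at 2 days reached 3197, so that the groups overlapped at that time once it was included. The 1 member with an interaction P below 0.05 was Klf15, a transcription factor at the count floor in the 4 week vehicle samples. Of the others, Mt1, the second metallothionein, went from 0.63 to 1.46, Cdkn1a, a cell cycle inhibitor, from 1.49 to 1.23, and Sgk1, a kinase induced by corticosteroids, from 0.42 to 0.37, and none of these passed the interaction.

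In lists of neuronal signalling and structure the interactions that passed were positive. Of 22 genes for GABA receptors, GABA synthesis and transport, 4 had a positive interaction with P below 0.05 and 0 a negative one (edgeR, unadjusted), beside 3.51% and 2.98% of all genes tested. At 2 days 7 of the 22 were lower and 0 higher with Cort in the experiment alone, where 2.83% of all genes were lower and 3.14% higher. At 4 weeks 1 was lower and 1 higher, where 1.95% of all genes were lower and 2.95% higher. The median went from -0.24 to 0.10. Gabra3, the alpha 3 subunit, measured 139 to 177 CPM with vehicle and 92.6 to 103 CPM with Cort at 2 days, and 103 to 114 CPM with vehicle and 104 to 159 CPM with Cort at 4 weeks (interaction 0.89 ± 0.36). Gabbr1, a subunit of the GABA B receptor, had an interaction of 0.64 ± 0.26, and both genes had fallen at 2 days and did not pass at 4 weeks. Gabrb1, the beta 1 subunit, instead had a log2 fold change of -0.06 at 2 days and 0.84 at 4 weeks, with 214 to 233 CPM in vehicle and 340 to 523 CPM in Cort samples (interaction 0.90 ± 0.27). Gabre, Gad1, Gad2 and Slc6a11, a subunit, both GABA-making enzymes and a transporter, also fell at 2 days, and their interactions, from 0.16 to 0.56, did not pass. Over all 20 samples 1 interaction of the 22 passed, and those of Gabrb1 (0.55) and Gabra3 (0.23) did not. Gabra3 did not pass without 2 day C02, nor Gabbr1 without any 1 of 4 samples.

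The same counts for the other neuronal lists were as follows, to be read beside 3.51% positive and 2.98% negative over all genes tested. Among 34 genes of synaptic vesicle release 4 had a positive interaction and 0 a negative one, among them Syt1, the calcium sensor of release (0.78 ± 0.27), and Unc13a, a priming factor (1.30 ± 0.54). Among 28 potassium channels 4 were positive and 0 negative, with Kcnj3 at 2.06 ± 0.66 and Kcnq3 at 1.40 ± 0.55. Among 25 sodium and calcium channels 4 were positive and 0 negative, with Scn1a as above and Cacna1a at 1.69 ± 0.60. Among 27 genes of neurofilaments and the neuronal cytoskeleton 4 were positive and 0 negative, with Ina as above, Marcks at 0.86 ± 0.34 and Dpysl2 at 0.52 ± 0.23. Glutamate receptor genes gave 1 of 29, Gria4, and axon guidance genes 2 of 36, Efnb2 and Sema5a, all positive. The median interaction was positive in each of these lists except that of the cytoskeleton, where it was -0.12 and 12 of 27 interactions were positive. Syt1 (0.11), Marcks (0.50), Dpysl2 (0.31) and Kcnj3 did not pass with all 20 samples. Cacna1a did not pass without 2 day C05, Marcks without 4 week C04, and Unc13a, Dpysl2, Gria4 and Sema5a without any 1 of several samples. Kcnq3 ranged from 0.95 to 2.17 with 1 sample left out and was largest without 4 week C02.

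Grouped together after their values had been seen, these 7 neuronal lists held 201 genes tested, of which 23 (11.4%) had a positive interaction with P below 0.05 and 0 a negative one, where all genes tested gave 3.51% and 2.98%. When weights per experiment let the spread differ between the times, the counts were 18 positive and 4 negative, with the experiments fitted apart by voom 6 and 0, and with all 20 samples 15 and 2. Leaving out 1 sample gave 15 to 22 positive and 0 to 4 negative. The medians of the 201 genes were small, at -0.10 at 2 days and 0.02 at 4 weeks, and their median interaction was 0.15, against 0.02 over all genes. In the same samples the interactions of oligodendrocyte genes that passed were negative, as described next, and their part in the neuronal counts was not tested.

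Among oligodendrocyte and myelin genes the interactions that passed were negative. Of 19 tested, 3 had a negative interaction with P below 0.05, Gjc3, Mobp and Mal, and none a positive one, beside 2.98% and 3.51% of all genes tested, and 4 of the 19 interactions were positive, against 51.0% of all genes. In the experiments alone 1 gene of 18 was higher and 1 lower at 2 days, where 3.14% of all genes were higher and 2.83% lower. At 4 weeks 0 of 17 were higher and 1 lower, where 2.95% of all genes were higher and 1.95% lower. The median log2 fold change was 0.24 at 2 days and -0.50 at 4 weeks, and the median interaction was -0.85. Over all 20 samples the 2 day median was -0.0034 and the 4 week median -0.35. Mal was -0.76 without 4 week C03 and did not pass. Gjc3, a gap junction protein of oligodendrocytes, measured 16.4 to 39.8 CPM with vehicle and 25.8 to 51.8 CPM with Cort at 2 days, and 86.1 to 155 CPM with vehicle and 2.32 to 36.6 CPM with Cort at 4 weeks. Its groups overlapped at 2 days and stood apart at 4 weeks, and the interaction was -3.16 ± 0.87, or -2.17 ± 0.84 with all 20 samples. The sum of the 19 genes was 672 to 721 CPM with vehicle and 742 to 913 CPM with Cort at 2 days, and 1051 to 1519 CPM with vehicle and 507 to 1158 CPM with Cort at 4 weeks.

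**Figure D4:**
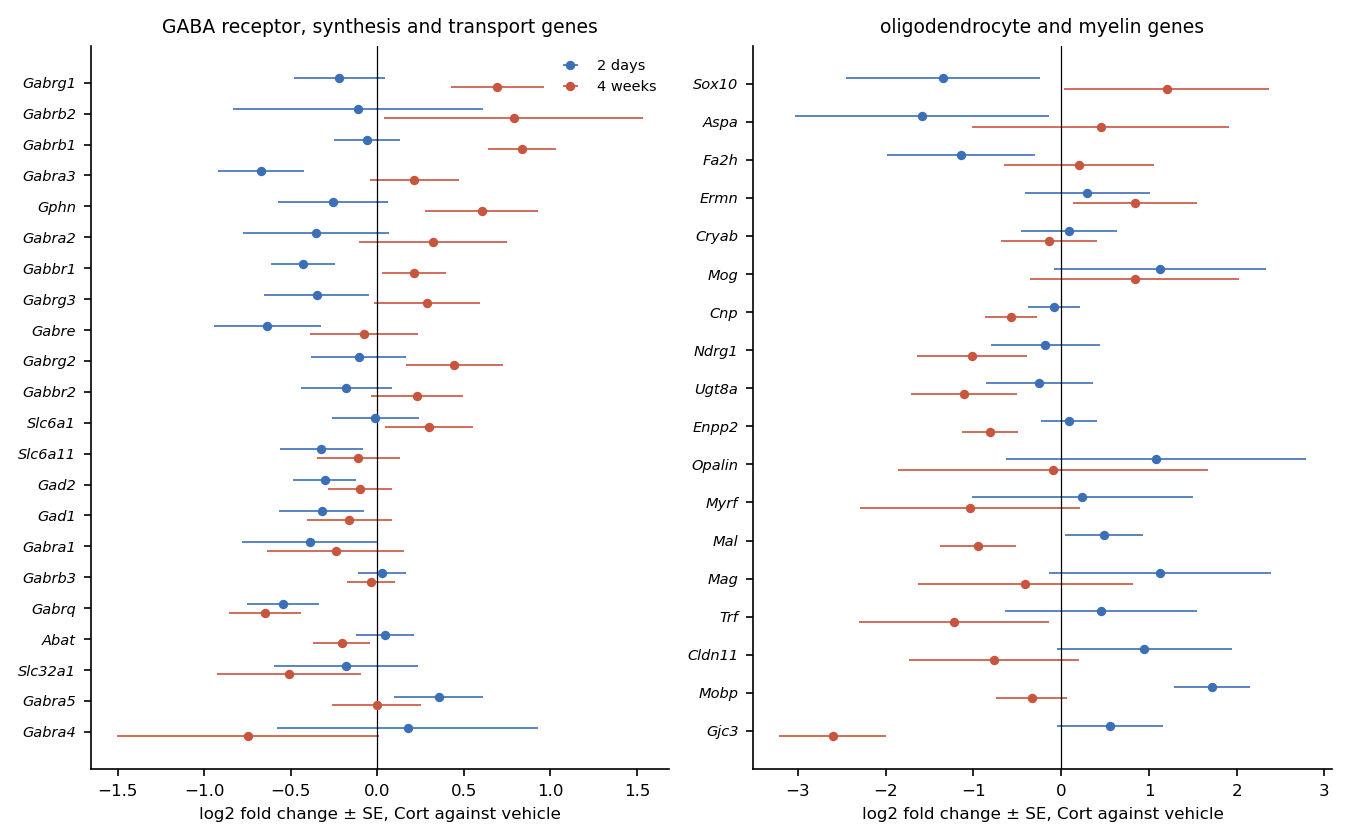
Log2 fold change of Cort against vehicle with its SE, at 2 days (blue) and 4 weeks (red), for the 22 genes for GABA receptors, synthesis and transport and 18 of the 19 oligodendrocyte and myelin genes tested, in the order of the interaction. For 16 GABA genes the 4 week point lies to the right of the 2 day point, and for 14 of the 18 myelin genes it lies to the left.

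Respiratory chain genes were listed by the genome that encodes them, and few passed in either list. Over all genes tested 3.51% of interactions were positive and 2.98% negative at P below 0.05. Of 13 genes encoded in the mitochondrial genome 12 had a positive interaction, but only mt-Nd2, a subunit of complex I, had a P below 0.05 (0.61 ± 0.23), and it did not pass without 2 day C05. It measured 1381 to 1836 CPM with vehicle and 1300 to 2204 CPM with Cort at 2 days, and 3145 to 3675 CPM with vehicle and 4338 to 6606 CPM with Cort at 4 weeks. At 4 weeks 7 of the 12 mitochondrial genes tested in the experiment alone were higher and 0 lower, where 2.95% of all genes were higher and 1.95% lower. Of 48 nuclear-encoded genes 2 had a negative interaction with P below 0.05, Ndufb10 (-1.28 ± 0.46, or -0.80 with all 20 samples, where it did not pass) and Ndufb9 (-0.81 ± 0.35, which did not pass without any 1 of 5 samples), and 16 of 48 were positive, where 51.0% of all genes were. The difference between the lists was not tested. The summed CPM of the mitochondrial genes was 38180 to 55080 in the 2 day samples and 80420 to 114300 in the 4 week samples. With the set-aside samples the vehicle sum at 4 weeks reached 121500, above the largest Cort sum of that experiment. Of 52 genes for cytosolic ribosomal proteins 1, Rps3, had a negative interaction with P below 0.05, which was lost with all 20 samples.

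Several lists held at most 1 gene that passed. None of 24 genes of leptin and insulin signalling, 28 of cholesterol and fatty acid synthesis, 14 of dopamine, GHRH, somatostatin and galanin neurons or 13 immediate early genes had an interaction P below 0.05 by edgeR's quasi-likelihood test. In 20 clock genes 1 did, Rora, although the median went from -0.22 to 0.30, and in 10 thyroid hormone genes 1 did, Hr. The interaction of Rora, 1.26, was 0.84 with all 20 samples and 0.74 without 4 week C09, and passed in neither. Over all 40 lists 69 of 788 distinct genes (8.76%) had an interaction P below 0.05, beside 6.49% of all genes tested.

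**Figure D5:**
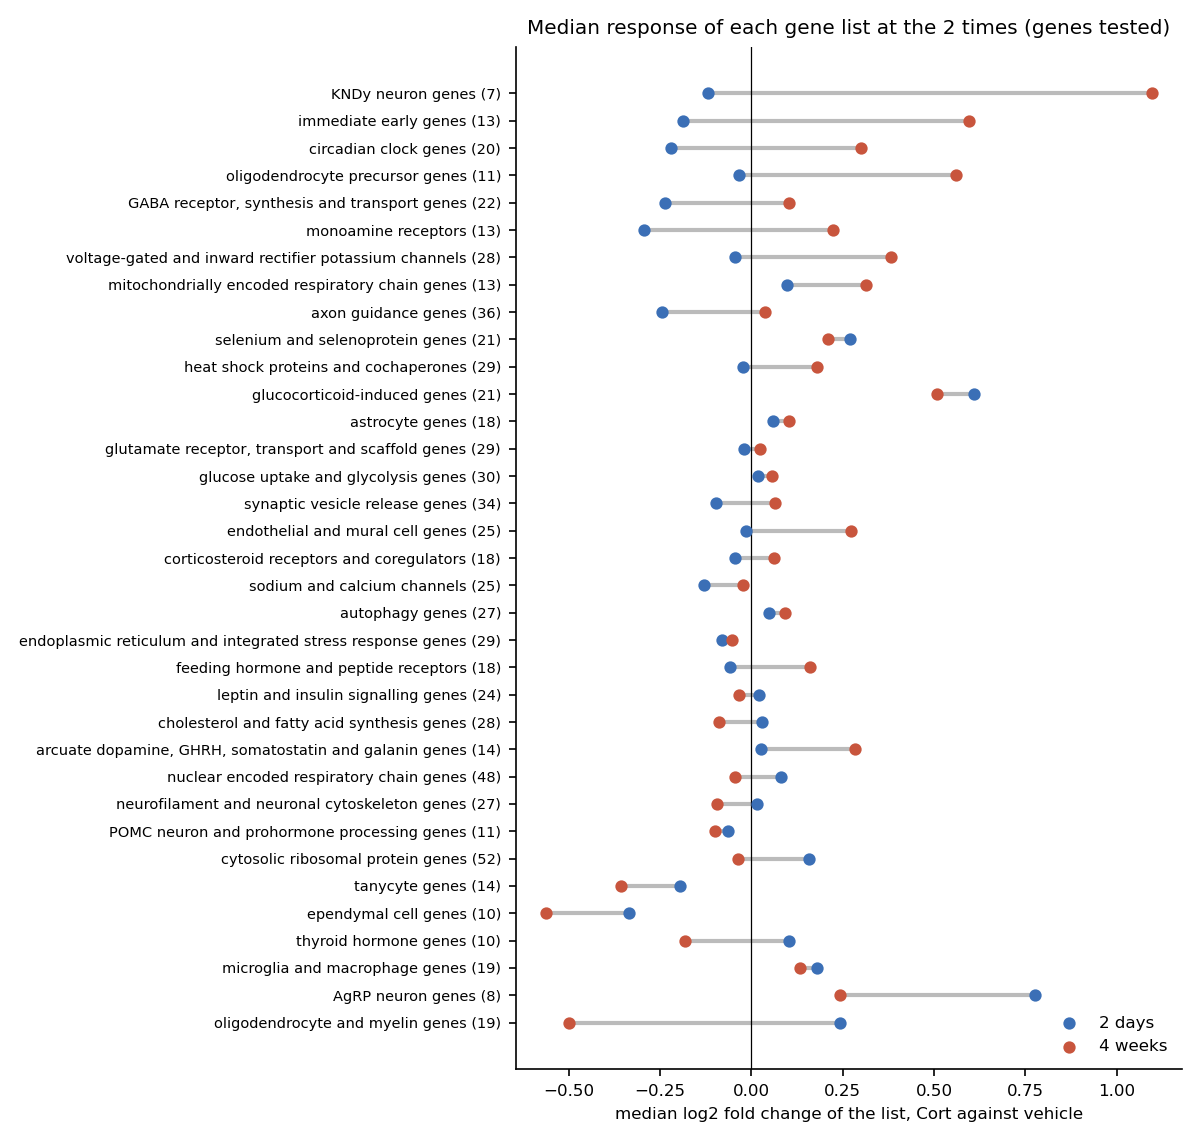
Median log2 fold change of Cort against vehicle at 2 days (blue) and 4 weeks (red) for each gene list with at least 7 genes tested, whose number stands in brackets, in the order of the median interaction. The glucocorticoid-induced genes stand at 0.61 and 0.51, the oligodendrocyte and myelin genes cross from 0.24 to -0.50 and the KNDy genes from -0.12 to 1.096.

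Markers of other cell types gave counts to be read beside the 3.51% positive and 2.98% negative interactions of all genes tested. Among 18 astrocyte genes 1 interaction passed P below 0.05 (Fgfr3, positive), among 14 tanycyte genes 1 (Gpr50, negative), among 25 endothelial and mural genes 2 in each direction, and among 19 microglial and 10 ependymal genes none. The sum of the 16 tanycyte genes listed was 2610 to 3475 CPM with vehicle and 2252 to 3233 CPM with Cort at 2 days, and 2681 to 3776 and 1961 to 2808 CPM at 4 weeks. The 5 blood cell genes all had a negative interaction and none passed, with sums over the 6 genes listed of 24.0 to 58.6 and 44.4 to 108 CPM at 2 days and 74.0 to 113 and 24.4 to 116 CPM at 4 weeks. Of 6 genes of the ventromedial nucleus 1 passed, Sox14 (4.48 ± 1.54), and the sum of the 7 listed was at most 112 CPM. Sox14 lay near the count floor, with 0, 0 and 1.67 CPM in the 4 week vehicle samples and 0 CPM in the set-aside samples of that experiment. Sox14 was 8.69 without 4 week C03, and Fgfr3, at 2.24, was 3.84 without 4 week C04 and did not pass without 4 week C03. Neither Fgfr3 (0.59) nor Gpr50 (-0.68) passed with all 20 samples. The part of these cell types in the interactions of other genes was not tested.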

How the data were processed

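RNA was measured in 20 ARC samples. Per the paper's methods, the authors mapped reads of 50 bp to GRCm38 and assigned them with featureCounts, and they deposited the raw count of each of 22048 genes per sample. CASAVA 1.7 is named in the submitters' processing notes. How strand and reads with several matches were handled is not given in the sources used here. The authors' tables of normalized values, fold changes and p-values were not used.

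Genes were kept by filterByExpr on the 4 groups, scaled by TMM and fitted by group in edgeR 4.0.16 (R 4.3.3), with the 2-sided quasi-likelihood test, unadjusted P and Benjamini-Hochberg Padj over all genes tested. The samples left out and the thresholds of P below 0.01 and Padj below 0.1 follow the paper, which fitted no interaction. CPM is the count scaled to 1000000 per sample by its total, with TMM factors over all 20 samples, and SE is that of the log2 interaction. Per the paper's methods the mice were singly housed, and P measures the spread between these samples. A group with no more than 3 counts in every sample was taken as at the floor, which covers counting error only, because the RNA was amplified without molecular identifiers. The columns of the tables name no replicate numbers of the labels and were matched by group, with 0 columns unmatched. With 3 against 4 samples the smallest exact permutation P is 0.0286.

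Named genes are those with Padj below 0.1, the 5 with the smallest P in each class and direction, those named in the paper's results, and up to 3 per list with an interaction P below 0.05. The values of some genes that the rule or the lists name are not reported here. The members, the lists and the classes were chosen with earlier results of these data known, so no list count is independent support. The script was tested on simulated data. Alternatives used DESeq2 1.42.0 and limma 3.58.1. Figures and promoters used Python 3.11.15, pandas 2.3.3, numpy 2.4.6 and matplotlib 3.10.9. Gene coordinates come from GENCODE for GRCm38.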

Additional observations from a re-analysis of the deposited data

Results flagged for a closer look

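The interactions of Npy (-2.80, log2) and Ina (2.15) differed between the times by their own test, at a Padj below 0.1 in edgeR. The other values concern 1 sample that lay far from the other 3 of its group, relative to their range. Chance would give this in about 1 in 20 groups if the values were normally distributed, which was not tested.

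In the 2 day Cort samples, Mobp measured 207 CPM in C10 against at most 167 CPM in the others, C1ql1 4.27 CPM in C06 against at most 2.79 CPM, Htr4 16.6 CPM in C01 against at most 2.28 CPM, and Gpr12 13.0 CPM in C01 against at most 5.63 CPM. In the 4 week Cort samples, Kcnq3 measured 403 CPM in C07 against at most 293 CPM in the others, Pecam1 186 CPM in C07 against at most 27.8 CPM, Gabarap 207 CPM in C08 against at most 142 CPM, and Nmb 27.2 CPM in C10 against at most 9.92 CPM. Atg13 measured 18.9 CPM in C08 against at least 65.1 CPM in the others. Nr0b1 and C1qtnf7 measured 0.25 CPM in C08 and Hk2 3.21 CPM in C09, where each was 0 in the other 3 samples. In such a group any count above 0 is flagged, so the flag says little for these 3 genes.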

How the results depend on the processing

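The number of genes with an interaction P below 0.01 (173) was 338 with DESeq2, 93 with at least 10 counts in every sample, 98 with voom weights per experiment, 8 with the experiments fitted apart by voom, and 87 to 269 with 1 sample left out. Below Padj 0.1 (2 genes) it was 39 with DESeq2, 1 with voom weights per experiment, 0 with the experiments apart or with all 20 samples by edgeR or voom, and 0 to 3 with 1 sample left out, being 0 without any of C01 to C05 or C10 at 2 days or C02, C04 or C08 at 4 weeks. With all 20 samples 3 genes reversed and 4 faded. With voom weights 18 faded and 65 grew. With the P of each experiment alone, which was chosen after the data were seen, 22 faded and 94 grew. At Padj below 0.1 the classes held 0 reversed, 0 faded and 2 grown genes. The share with the same sign at the other time became 68.2% and 49.5% with all 20 samples. Positive interactions were 54% of those below P 0.05, and 49.2% to 54.1% with other scalings in edgeR, but 37.3% with voom weights per experiment and 36.6% with the experiments fitted apart by voom. All 20 samples turned the sign for Pfkp (-0.26) and Pomc (0.080). Leaving out 1 sample turned it for Fkbp5 (-2.35 to 0.67, positive without 4 week C02), Selenop (-0.27 to 0.0015, positive without 4 week C04), Gabrq (-0.23 to 0.033, positive without 2 day C02 or 4 week C09) and Glul (-0.18 to 0.11, positive without 2 day or 4 week C04). The cause was not tested. Of 2485 refits of the 98 named genes, 2157 kept direction and side of P 0.01, 211 lost the call, 109 gained it and 8 turned sign. Genes above P 0.01 in the main fit that stayed above it count among the 2157. Only genes below it could lose a call, so the 211 are not to be read against all 2485 refits. No paired analysis was possible because the table columns carry no replicate numbers of the labels.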
